A study of Mus musculus with 258 samples.

Results

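The genes of transforming growth factor beta (TGF-beta), activin and bone morphogenetic protein (BMP) signalling were followed through endocrine differentiation in the embryonic mouse pancreas. Members were taken by gene symbol, as the ligand families Tgfb, Bmp, Gdf and inhibin, the type I, type II and accessory receptors, the Smads, and the secreted binding proteins and processing factors of these ligands. The rule gave 61 of the 40824 genes listed, made up of 26 ligands, 13 receptors with the decoy Bambi and the accessory receptor Tgfbr3, 8 Smads and 14 extracellular regulators. Bmp1 was counted with the regulators, because it is a secreted protease and not a growth factor.

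These ligands are secreted dimers that bring a pair of type II and a pair of type I serine/threonine kinase receptors together. The activated type I receptor phosphorylates Smads: Smad2 and Smad3 after TGF-beta and activin, Smad1, Smad5 and Smad9 after BMP. The phosphorylated Smads enter the nucleus with the shared partner Smad4, while Smad6 and Smad7 are inhibitory Smads that such signalling itself induces. In the developing pancreas, activins, Gdf11 and the receptors Acvr2a and Acvr2b are known from mouse mutants to affect how many endocrine cells form.

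Bulk RNA sequencing used 2 libraries for each of 3 sorted populations. The Ngn3-low and Ngn3-high gates were sorted from the dorsal pancreas of Ngn3-GFP embryos at embryonic day E13.5, and Ins1-RFP+ cells, called nascent β cells by the submitters, from Ins1-RFP pancreata at E17.5. Neurog3 (Ngn3) is the transcription factor that starts endocrine differentiation, and low and high refer to the level by which the cells were sorted. Comparisons with Ins1-RFP+ cells thus also differ in embryonic day, reporter line and the tissue named, which cannot be told apart from cell state. Single cells of the same 2 gates at E13.5 came from wild-type (WT) dorsal pancreas, with 49 Ngn3-low and 59 Ngn3-high cells, and from Pdx1-Cre; Jmjd3 fl/fl dorsal pancreas, with 69 Ngn3-low and 44 Ngn3-high cells. Pdx1-Cre recombines in the pancreatic epithelium, so cells that never made Pdx1 keep the demethylase gene Jmjd3 (Kdm6b). The labels tie neither libraries nor cells to animals, so a bulk p-value rests on how far 2 libraries of a population differ, which may be technical, and a single-cell group counts as 1 sample without a test.

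Bulk libraries held 11957415 to 17760214 reads in genes and the cells a median of 708409. The endocrine markers, 7 genes such as Neurod1 and Chga, summed to 317 to 359 CPM (reads of a gene as a share of all reads in genes, scaled as counts-per-million) in the Ngn3-low, 12192 to 13713 CPM in the Ngn3-high and 7400 to 8817 CPM in the Ins1-RFP+ libraries. The bulk Ngn3-low libraries also held 2028 and 2465 CPM of 11 white blood cell markers and 460 and 507 CPM of 11 endothelial markers, against 10.4 to 20.4 CPM and 14.6 to 19.04 CPM in the Ngn3-high libraries. In the 4 single-cell groups those lists summed to 3.66 to 12.6 CPM and 24.5 to 44.9 CPM. Ins1-RFP+ library 2 held 20925 CPM of tip and acinar markers and 727 CPM of mesenchyme markers, against 1223 and 192 CPM in library 1. Kdm6b reads stood at 131 CPM in WT Ngn3-low, 265 CPM in WT Ngn3-high, 55.5 CPM in deleted Ngn3-low and 107 CPM in deleted Ngn3-high cells. The labels do not say which exons are deleted, and reads outside them would remain, so these values check the genotype labels only in part.

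Of the 61 members, 32 reached a mean of 10 CPM in some bulk group, and 3 (Bmp10, Gdf1 and Gdf7) had no read in any of the 6 libraries. The expression filter of edgeR kept 45 members. Those left out included the ligands Bmp4, Inhba and Gdf5 and the ligand traps Fst and Grem1, none of these 5 above 2.08 CPM in a library. A further 13 members were tested but stayed under 10 CPM, including Tgfb2 at up to 9.62 CPM, Tgfb3 at up to 4.22 CPM and Nog at up to 2.37 CPM. In the authors' deposited pooled RPKM, which divides by gene length, the member with the highest level was Tgfbr1 in Ngn3-low cells at 36.06 RPKM and Bmp1 in Ngn3-high cells at 89.77 RPKM and in Ins1-RFP+ cells at 108.42 RPKM.

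From Ngn3-low to Ngn3-high cells, the transcripts for Tgfb1, Bmp2 and Bmp7, for the TGF-beta type II receptor Tgfbr2 and for Smad3 all fell 5-fold or more. All 11 white blood cell and all 11 endothelial markers fell with them, and in WT single cells Tgfb1 was at most 0.0928 CPM and Bmp2 was lower in the Ngn3-low gate, at 0.990 against 2.23 CPM. In the same step the type I receptors Tgfbr1 and Acvr1c, the protease Bmp1 and the BMP antagonist Chrd rose. Smad2, which carries the signal of Tgfbr2 together with Smad3, was called in neither direction. In edgeR's quasi-likelihood test over all genes, 12 of the 45 tested members rose, 16 fell and 17 did not pass an adjusted p of 0.05. Of all 15684 genes tested, 27.7% rose and 30.2% fell, so 26.7% and 35.6% of the members is close to the background, and the result lies in which members moved. With a fold of 2 or more also required, 7 members rose and 13 fell, against 14.4% and 20.4% of all genes. The median log2 fold change was -0.16 over the members and -0.01 over all genes. In bulk libraries, fewer cells of a type and less RNA per cell cannot be told apart.

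**Figure D1:**
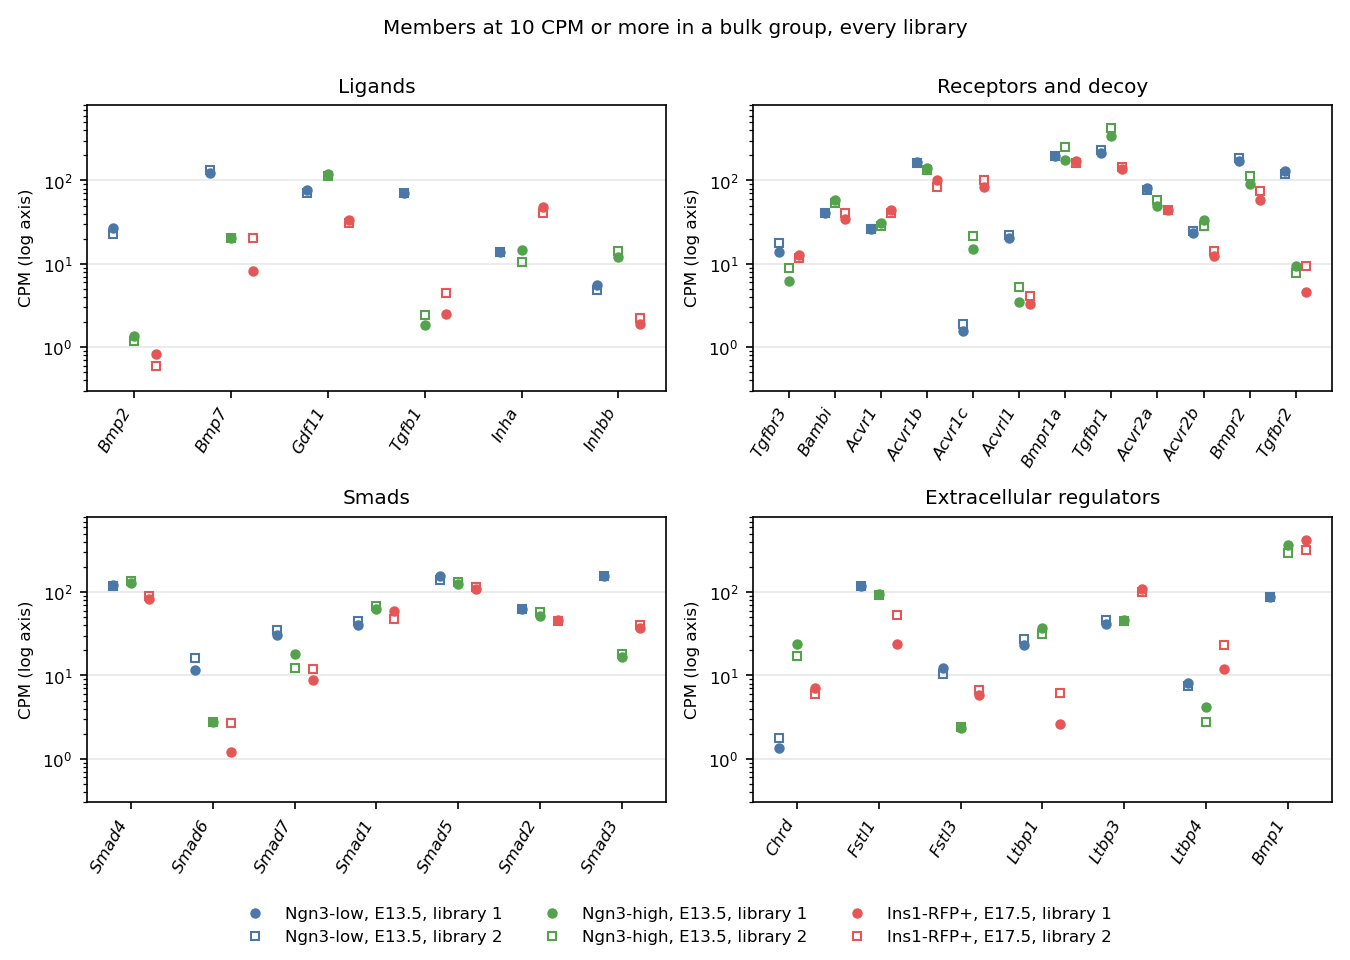
Level of each of the 32 members at 10 CPM or more in a bulk group, on a log axis, with filled circles for library 1 and open squares for library 2 of the Ngn3-low (blue), Ngn3-high (green) and Ins1-RFP+ (red) populations. Tgfb1, Bmp2, Bmp7, Tgfbr2 and Smad3 drop from blue to green, Acvr1c climbs from below 2 CPM to 84.5 and 102 CPM, and Smad2, Smad5 and Bmpr1a lie nearly level.

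Among the ligands, 2 of the 13 tested rose from Ngn3-low to Ngn3-high, 5 fell and 6 did not pass. Tgfb1, the TGF-beta isoform known from immune cells and vessels, stood at 70.4 and 70.2 CPM in the Ngn3-low, 1.84 and 2.43 CPM in the Ngn3-high and 2.51 and 4.47 CPM in the Ins1-RFP+ libraries. Its Ngn3-low libraries nearly coincided and lay far above all others, and the Ngn3-high minus Ngn3-low log2 fold change was -4.97 ± 0.27, adjusted p = 1.65e-06. Bmp2, a BMP ligand, stood at 26.9 and 22.6 CPM in the Ngn3-low, 1.36 and 1.17 CPM in the Ngn3-high and 0.816 and 0.597 CPM in the Ins1-RFP+ libraries. It fell in the same step, by 4.18 ± 0.26 on the log2 scale with an adjusted p of 3.54e-06. White blood cell and endothelial markers fell over the same step, 11 of 11 in each list, and in single cells, where the white blood cell list summed to at most 12.6 CPM, Bmp2 was at most 2.23 CPM and Tgfb1 at most 0.0928 CPM in any group.

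Bmp7, the BMP ligand with the highest authors' deposited RPKM in Ngn3-low cells (32.41 RPKM), stood at 124 and 132 CPM in the Ngn3-low, 20.3 and 20.3 CPM in the Ngn3-high and 8.10 and 20.4 CPM in the Ins1-RFP+ libraries. The groups of the first step did not overlap (log2 -2.58 ± 0.32, adjusted p = 1.88e-04). The 2 Ins1-RFP+ libraries differed more than 2-fold, and the value at library 2 equalled the Ngn3-high level. From Ngn3-high to Ins1-RFP+ the log2 change of Bmp7 was -0.45 ± 0.33, adjusted p = 0.287 with all libraries, 0.07 without Ins1-RFP+ library 1, and -1.23 with an adjusted p of 2.72e-04 without library 2.

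Gdf11, a Smad2/3-activating ligand, went the other way in the first step. It stood at 77.6 and 70.2 CPM in the Ngn3-low, 118 and 113 CPM in the Ngn3-high and 33.2 and 31.2 CPM in the Ins1-RFP+ libraries, so that the Ngn3-high libraries were highest and the Ins1-RFP+ libraries lowest, with no overlap. The log2 change was 0.72 ± 0.11, adjusted p = 6.27e-04 into Ngn3-high and -1.76 ± 0.11, adjusted p = 1.35e-05 into Ins1-RFP+ cells. Inhbb, the subunit of activin B, rose and fell over the same steps, with 5.63 and 4.91 CPM in the Ngn3-low, 12.1 and 14.1 CPM in the Ngn3-high and 1.88 and 2.24 CPM in the Ins1-RFP+ libraries (log2 1.39 ± 0.23, then -2.58 ± 0.25, adjusted p 9.00e-04 and 8.20e-05). Inha, the inhibin alpha subunit that pairs with activin subunits to form an antagonist, stood at 14.02 and 13.7 CPM in the Ngn3-low, 14.8 and 10.4 CPM in the Ngn3-high and 47.8 and 40.9 CPM in the Ins1-RFP+ libraries. Its E13.5 groups overlapped (adjusted p = 0.856), and it rose into Ins1-RFP+ cells by log2 1.89 ± 0.20, adjusted p = 1.37e-04. In the authors' deposited pooled RPKM, Inha ranked 18th, 16th and 2nd among the 61 members in Ngn3-low, Ngn3-high and Ins1-RFP+ cells, at 8.79, 8.8 and 32.62 RPKM.

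Gdf3, a ligand under 2 CPM throughout, had no read in either Ngn3-high library, where 3 counts would give 0.178 and 0.251 CPM. Its Ngn3-low libraries held 0.507 and 0.409 CPM and its Ins1-RFP+ libraries 1.19 and 0.969 CPM, so its calls rest on few reads and no fold is given. The other ligands called in either step, Gdf15, Bmp3 and Bmp6, stayed below 4 CPM in every library.

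The receptors divided between and within the type I and type II classes: 4 of 13 rose into Ngn3-high cells, 5 fell and 4 did not pass. Tgfbr2, the type II receptor that binds TGF-beta ligands (ENSMUSG00000032440, chr9:116087695-116175363; RefSeq gene bounds on GRCm38 here and for the genes that follow), stood at 131 and 120.4 CPM in the Ngn3-low, 9.49 and 7.69 CPM in the Ngn3-high and 4.65 and 9.40 CPM in the Ins1-RFP+ libraries. The Ngn3-low libraries exceeded all others more than 10-fold (log2 -3.78 ± 0.27, adjusted p = 7.34e-06), and the Ngn3-high and Ins1-RFP+ libraries overlapped (adjusted p = 0.512). Its type I partner Tgfbr1 stood at 216 and 232 CPM in the Ngn3-low, 338 and 429 CPM in the Ngn3-high and 138 and 144 CPM in the Ins1-RFP+ libraries. Tgfbr1 was thus highest where Tgfbr2 had already dropped, with log2 changes of 0.86 ± 0.13, adjusted p = 6.69e-04, and then -1.36 ± 0.13, adjusted p = 9.78e-05.

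Acvr1c (ALK7; ENSMUSG00000026834, chr2:58267453-58357896), a type I receptor for activin B, nodal and some Gdf ligands, had the largest rise of the receptors. It stood at 1.58 and 1.88 CPM in the Ngn3-low, 15.01 and 21.7 CPM in the Ngn3-high and 84.5 and 102 CPM in the Ins1-RFP+ libraries, with the 3 groups fully separated. The change was log2 3.49 ± 0.24, adjusted p = 6.43e-06 into Ngn3-high and 2.44 ± 0.19, adjusted p = 2.87e-05 into Ins1-RFP+ cells. Acvrl1 (ALK1), a type I receptor best known from endothelium, fell from 20.2 and 22 to 3.50 and 5.27 CPM (log2 -2.19 ± 0.25, adjusted p = 1.03e-04), and 11 of 11 endothelial markers fell in the same step.

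The 2 activin type II receptors were called in opposite directions in the first bulk step, though the rise of Acvr2b lay near the threshold. Acvr2a fell from 81.1 and 77.5 CPM to 49.2 and 58.6 CPM (log2 -0.48 ± 0.12, adjusted p = 0.00829, and 0.0751 without Ngn3-low library 1). Acvr2b stood at 23.2 and 24.5 CPM in the Ngn3-low, 33.3 and 28.02 CPM in the Ngn3-high and 12.4 and 14.2 CPM in the Ins1-RFP+ libraries. Its first change, log2 0.45 ± 0.16, adjusted p = 0.0360, was lost without either Ngn3-low library (adjusted p = 0.161 and 0.140), without Ngn3-high library 1 (0.199) and with scaling by total counts (0.0735). In single cells Acvr2b was lower in the Ngn3-high than the Ngn3-low gate in WT, at 12.2 against 18.1 CPM, and higher in deleted cells, at 15.9 against 12.6 CPM. Its bulk drop into Ins1-RFP+ cells was log2 -1.12 ± 0.16, adjusted p = 6.72e-04.

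Of the BMP receptors, Bmpr1a, a type I receptor, stood at 196 and 195 CPM in the Ngn3-low, 176 and 249 CPM in the Ngn3-high and 173 and 164 CPM in the Ins1-RFP+ libraries, and passed the threshold in none of the 3 comparisons. Without Ngn3-high library 1 it passed in both comparisons with Ngn3-high cells (adjusted p = 0.0235 and 0.0197). Bmpr2, the type II BMP receptor, fell in both steps, from 172 and 184 through 89.6 and 112 to 58.2 and 74.9 CPM (log2 -0.74 ± 0.15 and -0.51 ± 0.15, adjusted p 0.00250 and 0.0191). The second of these calls was lost without Ngn3-high library 2 (0.101) or Ins1-RFP+ library 1 (0.117). Bambi, a decoy that lacks the kinase domain, stood at 40.7 and 41.1 CPM in the Ngn3-low, 57.5 and 53.8 CPM in the Ngn3-high and 34.3 and 40.6 CPM in the Ins1-RFP+ libraries, a rise of log2 0.53 ± 0.12, adjusted p = 0.00591. From Ngn3-low to Ins1-RFP+ it did not pass (adjusted p = 0.807), and its log2 0.04 became -0.13 when scaled by total counts. Its second step was -0.49 ± 0.12, adjusted p = 0.0105, and lost significance without Ngn3-high library 1 (0.0550) or Ins1-RFP+ library 1 (0.0754).

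Tgfbr3 (betaglycan), which presents ligand to the other receptors, fell from 13.7 and 17.99 to 6.23 and 8.86 CPM and rose to 12.6 and 11.7 CPM. Its adjusted p of 0.00623 in the first step became 0.0511 without Ngn3-low library 2. In the second step its adjusted p of 0.0226 became 0.113 without Ngn3-high library 1 and 0.05005 without Ins1-RFP+ library 1. Acvr1, a BMP and activin type I receptor (ALK2), did not pass in the first step and rose into Ins1-RFP+ cells, from 30.5 and 28.02 to 43.8 and 40.6 CPM (log2 0.61 ± 0.13, adjusted p = 0.00441). Acvr1b (ALK4), an activin type I receptor, stood at 164 and 161 CPM in the Ngn3-low, 142 and 132 CPM in the Ngn3-high and 101 and 84.6 CPM in the Ins1-RFP+ libraries. It fell in the second step by 0.48 ± 0.12 on the log2 scale (adjusted p = 0.0112), but not without Ngn3-high library 1 (0.0610) or Ins1-RFP+ library 2 (0.0930).

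**Figure D2:**
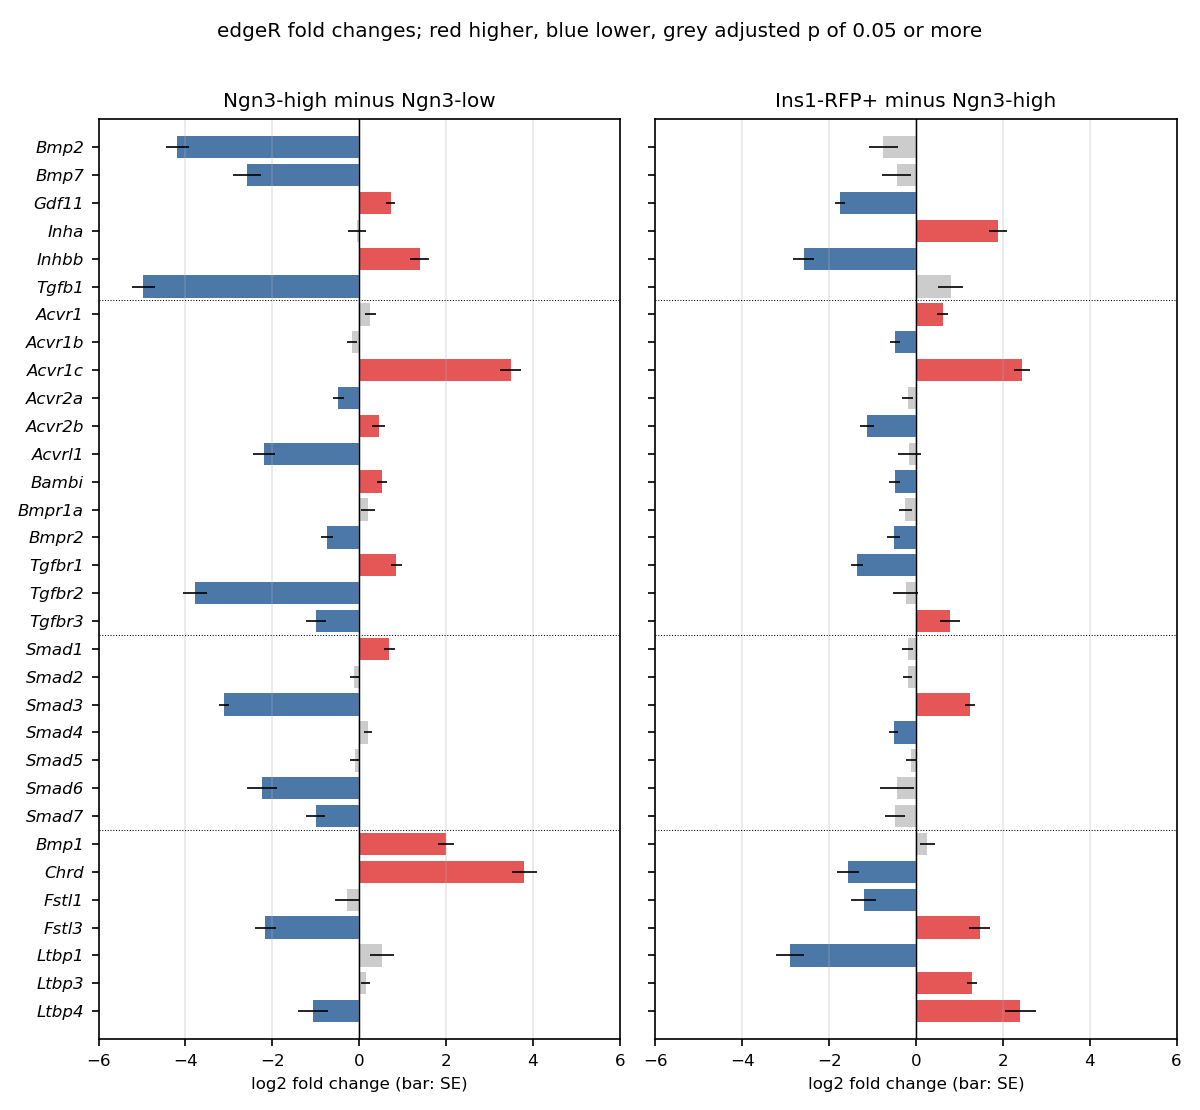
log2 fold change with its SE for the 32 members at 10 CPM or more in a bulk group, from edgeR, for Ngn3-high minus Ngn3-low (left) and Ins1-RFP+ minus Ngn3-high (right). Rows run from ligands through receptors and Smads to extracellular regulators, dotted lines part the roles, and grey bars had an adjusted p of 0.05 or more, such as Smad2 and Smad5 in both panels.

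Of the 8 Smads, 1 rose into Ngn3-high cells, 3 fell and 4 did not pass. Smad3 (ENSMUSG00000032402, chr9:63646766-63757994) stood at 158 and 156 CPM in the Ngn3-low, 16.5 and 18.1 CPM in the Ngn3-high and 36.7 and 40.4 CPM in the Ins1-RFP+ libraries. The 3 groups were separated without overlap, the Ngn3-low libraries on top, with a drop of log2 -3.11 ± 0.12, adjusted p = 4.35e-07 and a partial return of 1.24 ± 0.11, adjusted p = 6.23e-05. Smad2, which is activated by the same receptors, stood at 63.2 and 63.2 CPM in the Ngn3-low, 52.3 and 58.4 CPM in the Ngn3-high and 46.2 and 45.04 CPM in the Ins1-RFP+ libraries, and did not pass in either step (adjusted p = 0.413 and 0.172).

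Both inhibitory Smads fell in the first step, as Smad3 did. Smad6 fell from 11.5 and 16.03 to 2.73 and 2.76 CPM (log2 -2.24 ± 0.35, adjusted p = 7.69e-04) and stood at 1.19 and 2.68 CPM in the Ins1-RFP+ libraries. Smad7 fell from 30.7 and 34.8 to 18.1 and 12.5 CPM (log2 -1.005 ± 0.22, adjusted p = 0.00474) and stood at 8.86 and 12.1 CPM in Ins1-RFP+ libraries. Its second step passed without Ngn3-high library 2 (0.0390) or without Ins1-RFP+ library 2 (0.0372), and not with all libraries (0.118). Smad1, a BMP Smad, rose from 40.5 and 45.1 to 63.2 and 67.5 CPM (log2 0.70 ± 0.13, adjusted p = 0.00233). Smad5, a second BMP Smad, stood at 155 and 138 CPM in the Ngn3-low, 127 and 131 CPM in the Ngn3-high and 108 and 117 CPM in the Ins1-RFP+ libraries and passed in none of the 3 comparisons, except over both steps with scaling by total counts (0.0109). Smad4, the common partner, did not pass in the first step and fell by 0.51 ± 0.10 on the log2 scale in the second (adjusted p = 0.00307), from 128 and 136 to 83.9 and 90.9 CPM.

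Among the extracellular regulators, 5 of the 11 tested rose into Ngn3-high cells, 3 fell and 3 did not pass. Bmp1, which cleaves procollagens and the BMP antagonist chordin, stood at 87.7 and 88.3 CPM in the Ngn3-low, 367 and 294 CPM in the Ngn3-high and 428 and 319 CPM in the Ins1-RFP+ libraries. Every Ngn3-high and Ins1-RFP+ library was more than 3-fold above the Ngn3-low libraries (log2 1.995 ± 0.18, adjusted p = 2.84e-05), and the later 2 groups overlapped (adjusted p = 0.246, and 0.0450 without Ins1-RFP+ library 2). Chrd, the gene of chordin (ENSMUSG00000006958, chr16:20731425-20742384), stood at 1.35 and 1.80 CPM in the Ngn3-low, 23.96 and 16.98 CPM in the Ngn3-high and 7.03 and 6.04 CPM in the Ins1-RFP+ libraries. Its groups did not overlap, with a rise of log2 3.80 ± 0.28, adjusted p = 9.55e-06 and a fall of -1.56 ± 0.24, adjusted p = 0.00108. The genes of chordin and of its protease thus rose in the same step.

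Fstl3 (ENSMUSG00000020325, chr10:79777274-79782630), a secreted trap for activin and related ligands, stood at 12.2 and 10.6 CPM in the Ngn3-low, 2.37 and 2.43 CPM in the Ngn3-high and 5.90 and 6.64 CPM in the Ins1-RFP+ libraries. The Ngn3-high libraries were lowest, with log2 changes of -2.16 ± 0.24, adjusted p = 8.82e-05, and 1.46 ± 0.24, adjusted p = 0.00135. Fstl1, a secreted follistatin-like glycoprotein, did not pass in the first step and fell in the second, from 93.8 and 92.6 to 23.9 and 52.8 CPM (log2 -1.21 ± 0.29, adjusted p = 0.00831, and 0.0531 without Ngn3-high library 1).

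The latent TGF-beta binding proteins, which hold TGF-beta in the matrix, went apart in the second step. Ltbp1 stood at 23.3 and 27.2 CPM in the Ngn3-low, 37.01 and 31.4 CPM in the Ngn3-high and 2.64 and 6.11 CPM in the Ins1-RFP+ libraries and fell into Ins1-RFP+ cells by 2.91 ± 0.32 on the log2 scale (adjusted p = 1.76e-04). Its first step did not pass with all libraries (adjusted p = 0.141) and passed without Ins1-RFP+ library 1 or 2 (0.00973 and 0.00887), which changes the shared estimate of spread. Ltbp3 stood at 41.8 and 46.05 CPM in the Ngn3-low, 46.9 and 44.7 CPM in the Ngn3-high and 110.04 and 100.1 CPM in the Ins1-RFP+ libraries, and Ltbp4 at 8.11 and 7.44 CPM in the Ngn3-low, 4.15 and 2.76 CPM in the Ngn3-high and 12.1 and 23.2 CPM in the Ins1-RFP+ libraries. Both rose in that step, by log2 1.28 ± 0.11, adjusted p = 5.22e-05, and 2.40 ± 0.35, adjusted p = 7.26e-04. Among members at 5 CPM or more in either Ins1-RFP+ library, the 2 libraries differed nearly 2-fold or more for Ltbp1, Ltbp4, Fstl1, Bmp7, Tgfbr2 and Tgfb2, each higher in library 2, which also held more of the mesenchyme and acinar markers. The part of those cells in the 6 values was not tested.

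Promoter sequences, from RefSeq on GRCm38.p6, are given for 5 members called at the first step, 3 that fell (Smad3, Tgfbr2 and Fstl3) and 2 that rose (Tgfbr1 and Inhbb), each with its first start in the table at the 5′ end of the gene. They are the 250 bases before that start, 5′ to 3′ on the gene's strand, and show what sequence lies ahead of genes that moved in opposite directions. Of the 61 members, 43 were found in the promoter table, with 55 starts. Capitals mark 3 motifs read on both strands: GGCGCC, a GC-rich site of BMP Smads, CAGAC, the Smad box, and CAGATG, an E-box of the kind bound by Neurod1 and Neurog3. None of the motifs contains another.
Smad3 (chr9:63757995-63758244, minus strand): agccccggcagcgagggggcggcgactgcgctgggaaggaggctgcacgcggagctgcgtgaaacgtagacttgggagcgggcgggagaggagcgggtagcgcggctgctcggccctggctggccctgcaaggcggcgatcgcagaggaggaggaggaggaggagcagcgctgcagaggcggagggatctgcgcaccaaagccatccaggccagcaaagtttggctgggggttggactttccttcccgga
Tgfbr2 (chr9:116175364-116175613, minus strand): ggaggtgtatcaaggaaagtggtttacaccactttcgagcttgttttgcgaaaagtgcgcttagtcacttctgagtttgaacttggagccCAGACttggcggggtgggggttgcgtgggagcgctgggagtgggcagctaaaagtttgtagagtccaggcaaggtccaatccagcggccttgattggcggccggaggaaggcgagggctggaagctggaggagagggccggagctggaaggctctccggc
Fstl3 (chr10:79777024-79777273, plus strand): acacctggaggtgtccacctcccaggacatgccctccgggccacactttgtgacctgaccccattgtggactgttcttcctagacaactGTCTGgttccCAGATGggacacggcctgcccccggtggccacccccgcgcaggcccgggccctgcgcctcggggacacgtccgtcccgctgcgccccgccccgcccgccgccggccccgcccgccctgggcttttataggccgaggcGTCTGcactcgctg
Tgfbr1 (chr4:47352972-47353221, plus strand): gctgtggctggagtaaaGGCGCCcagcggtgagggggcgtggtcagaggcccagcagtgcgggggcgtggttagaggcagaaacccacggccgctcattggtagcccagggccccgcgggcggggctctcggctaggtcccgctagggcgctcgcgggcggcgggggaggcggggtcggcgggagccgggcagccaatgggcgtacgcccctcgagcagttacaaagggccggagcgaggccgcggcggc
Inhbb (chr1:119422249-119422498, minus strand): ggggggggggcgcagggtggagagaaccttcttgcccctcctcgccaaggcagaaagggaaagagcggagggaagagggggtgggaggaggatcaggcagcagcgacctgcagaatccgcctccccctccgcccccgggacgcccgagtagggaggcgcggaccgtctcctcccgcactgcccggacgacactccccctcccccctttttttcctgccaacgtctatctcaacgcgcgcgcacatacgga
Fstl3 held 2 CAGAC and 1 CAGATG, Tgfbr2 held 1 CAGAC and Tgfbr1 held 1 GGCGCC, while the Smad3 and Inhbb windows held none of the 3. Of all 32851 promoters of the table, 9.59% held GGCGCC, 42.2% CAGAC and 14.4% CAGATG in such a window, and of the 55 member starts 18.2%, 49.1% and 16.4%. The matches describe letters in these windows and not binding.

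Between Ngn3-high and Ins1-RFP+ cells, 24 of the 45 tested members were called, 11 up and 13 down, and 21 did not pass. Embryonic day and reporter line change together with the population in this step, and their parts cannot be told apart. That is 24.4% and 28.9%, beside 26.1% and 24.9% of all genes, with a median log2 change of -0.20 over the members and 0.01 over all genes. The rises among members at 10 CPM or more were Inha, Acvr1, Acvr1c, Tgfbr3, Smad3, Ltbp3 and Ltbp4. In the same step 11 of 11 endothelial, 8 of 11 white blood cell, 8 of 10 mesenchyme and 7 of 7 tip and acinar markers rose, and their part in these rises was not tested. Over both steps, from Ngn3-low to Ins1-RFP+ cells, 12 members rose, 23 fell and 10 did not pass, beside 30.4% up and 35.5% down among all genes. The medians were -0.50 and -0.08, and scaling by total counts moved the median of all genes by -0.17 and the share of upward calls among all genes called from 46.1% to 38.4%. The 3 comparisons share libraries and are not independent of each other.

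Across the whole interval, the largest changes among members at 10 CPM or more were Acvr1c at log2 5.93 ± 0.24, adjusted p = 4.56e-07, on the rising side, and Bmp2, Tgfb1, Tgfbr2 and Bmp7 on the falling side, at -4.94, -4.18, -4.01 and -3.02. White blood cell markers, 11 of 11, and endothelial markers, 10 of 11, fell over the same interval, and Bmp2 and Tgfb1 were at or under 1.38 CPM in the Ngn3-low single cells. Smad3 remained lower than in Ngn3-low cells by log2 1.86 ± 0.11 despite its partial return, with an adjusted p of 2.08e-06. Bmp1 remained higher (log2 2.25 ± 0.18, adjusted p = 1.26e-05), as did Chrd (2.24 ± 0.29, adjusted p = 1.88e-04). Calls near the threshold depended on single libraries or on the setting. Smad2 (adjusted p = 0.0363) and Smad4 (0.0229) were lost when any 1 of the 4 libraries compared was left out, with adjusted p of 0.102 to 0.185 and 0.0684 to 0.161, Smad2 also with DESeq2's Wald test (0.0895) or its size factors in edgeR (0.0622), and both without the filter on low counts (0.0972 and 0.0604). Smad1 (0.0106) was lost without Ngn3-low library 1 (0.0778) or Ins1-RFP+ library 1 (0.0950) and with scaling by total counts (0.0544). Fstl3 (0.0204) was lost without the same libraries (0.155 and 0.0753) and with DESeq2's Wald test (0.0634). Tgfbr1 (0.00969) was lost without Ngn3-low library 2 (0.0568). Without Ins1-RFP+ library 2 the fall of Bmp7 over the interval was 3.79 on the log2 scale.

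Reads per kilobase of gene length allow members of a set to be set against each other. Smad3 made up 58.3% ± 0.21 (SD, n = 2) of the Smad2 and Smad3 reads per kilobase in Ngn3-low libraries, 14.9% ± 0.16 in Ngn3-high and 32.2% ± 1.87 in Ins1-RFP+ libraries. In the bulk libraries Smad2 was thus the larger of the pair after, and not before, the first step. In Ngn3-low single cells the order per kilobase differed between the genotypes, with listed lengths of 2857 bases for Smad2 and 5090 for Smad3. Smad2 was the larger in WT cells (74.9 against 106 CPM) and Smad3 in deleted cells (55.2 against 113 CPM, Smad2 first). Smad5 made up 65.9% and Smad1 33.6% of the BMP Smad reads per kilobase in Ngn3-low libraries. Among the type II receptors, Tgfbr2 went from 38.7% ± 1.79 through 4.88% ± 0.72 to 6.49% ± 2.46, while Acvr2b went from 20.4% ± 1.06 through 48.2% ± 5.81 to 34.9% ± 0.46. Acvr2a and Acvr2b together held most type II reads per kilobase in the later 2 populations. This rests on the listed gene lengths, 1729 bases for Acvr2b and 12899 for Bmpr2. Before division by length Bmpr2 had the most reads of the set there, at means of 101 and 66.6 CPM. Tgfbr2 held the largest type II share in the bulk Ngn3-low libraries, but in Ngn3-low single cells Acvr2a was above it per kilobase in both genotypes. Acvr2a stood at 111 against 55.5 CPM of Tgfbr2 in WT and 92.2 against 48.2 CPM in deleted cells, with listed lengths of 5686 and 4785 bases. Among the type I receptors, Tgfbr1 held 31.7% ± 1.13, 45.6% ± 1.80 and 25.03% ± 1.24, and Acvr1c 0.154% ± 0.017, 1.36% ± 0.18 and 10.4% ± 1.64. These shares are descriptions of 2 libraries per population and were not tested.

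**Figure D3:**
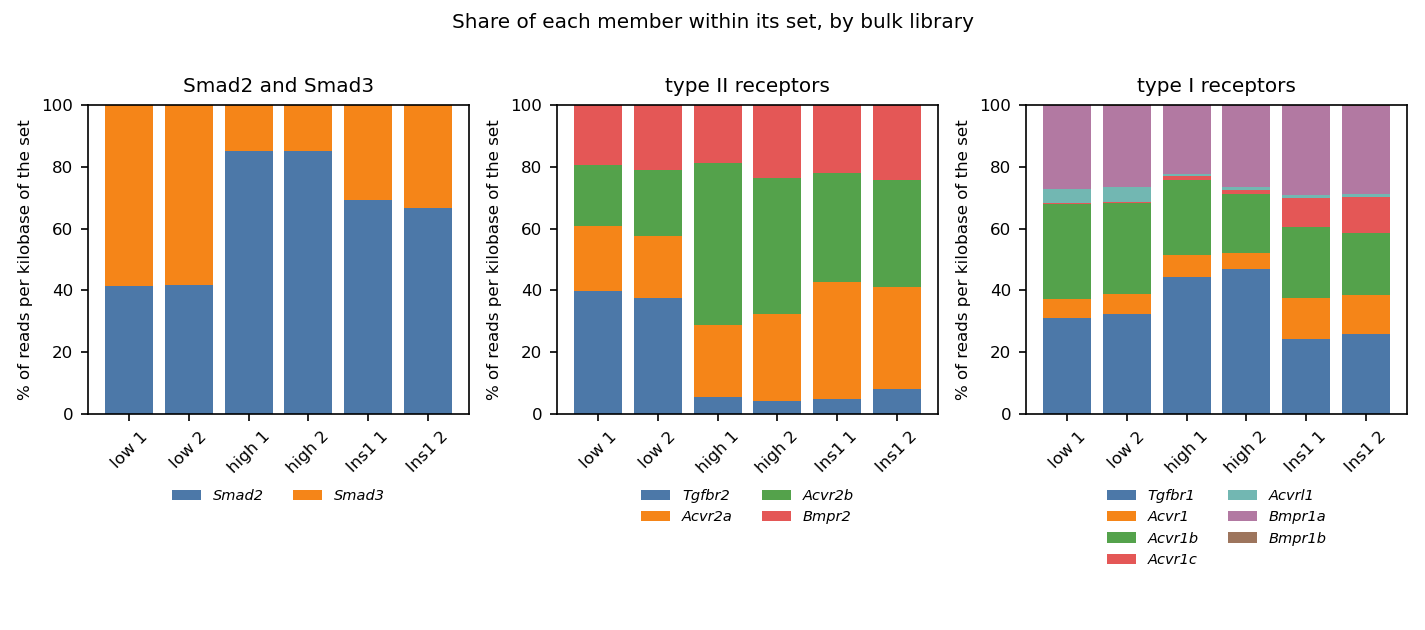
Share of each member in the reads per kilobase of its set, in percent, as stacked bars for each bulk library (low, Ngn3-low; high, Ngn3-high; Ins1, Ins1-RFP+). Smad3 shrinks from 58.3% to 14.9% and Tgfbr2 from 38.7% to 4.88% at the first step, and Acvr1c appears as a visible band of the type I receptors, at 10.4%, in the Ins1-RFP+ bars.

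Lists of other genes of these pathways were read from the same fit. Of 17 genes known to respond to Smads, 16 were tested, and 2 rose, 9 fell and 5 did not pass from Ngn3-low to Ngn3-high (median log2 -0.89, beside -0.01 over all genes). Of all genes tested, 27.7% rose and 30.2% fell in this step, and among those that fell were the white blood cell and endothelial markers, 11 of 11 in each list, whose part in the falls of these lists was not tested. The BMP-responsive Id3, an inhibitor of helix-loop-helix factors, fell from 68.6 and 56.2 to 18.6 and 10.6 CPM (log2 -2.001 ± 0.29, adjusted p = 4.73e-04). Tgif1, a Smad corepressor, fell by 3.19 ± 0.29, and the matricellular genes Cyr61, Ctgf and Tgfbi, which other pathways also control, by 4.49, 4.66 and 3.66 on the log2 scale. In the second step the list stood at 5 up and 5 down (median 0.24, beside 0.01), among them Id1, which fell from 38.4 and 27.8 to 3.45 and 3.73 CPM (log2 -3.13 ± 0.21, adjusted p = 1.43e-05), and Junb, which rose from 106 and 75.4 to 576 and 402 CPM.

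Of 14 other ligands and co-receptors, 7 were tested, and 2 rose and 5 fell in the first step (median log2 -1.54). The TGF-beta co-receptor Eng, abundant on endothelium, fell from 40.5 and 49.7 to 0.771 and 1.25 CPM (log2 -5.42 ± 0.33, adjusted p = 3.34e-06), and the BMP co-receptor Rgma from 62.9 and 60.04 to 6.41 and 7.94 CPM (log2 -3.02 ± 0.18, adjusted p = 3.03e-06). Of 26 other extracellular modulators, 21 were tested, with 4 up and 9 down (median log2 -0.63). Cer1, an antagonist of nodal and BMP, went from 6.25 and 8.10 to 61.1 and 69.6 CPM and back to 4.84 and 5.22 CPM (log2 3.28 ± 0.17 and -3.62 ± 0.18). Like Chrd, it was highest in the Ngn3-high libraries. Pcsk6, a protease that matures such ligands, rose by log2 3.57 ± 0.13, while the BMP antagonist Chrdl1 fell by 3.96 ± 0.25 and Thbs1 and Itgb6, activators of latent TGF-beta, by 3.68 and 2.37. Of 17 tested intracellular regulators 4 rose, 2 fell and 11 did not pass (median log2 0.22).

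Single cells of the same gates gave the levels of the members in cells that carry few white blood cell reads. Counts were summed over each group and are given as CPM, with exact 95% Poisson intervals that cover counting error only. In WT cells, 28 members reached 5 CPM in either gate, of which 5 were 2-fold or more higher and 6 lower in Ngn3-high than in Ngn3-low cells, after 1 CPM was added to each side. That compares with 14% higher and 19% lower among 11792 genes, and no test was possible with 1 sample per group. The 5 were Acvr1c, Bmp1, Chrd, Fst and Tgfb2, and the 6 were Acvr2a, Bmp7, Fstl3, Smad3, Smad7 and Tgfbr2. In deleted cells it was 7 higher and 9 lower of 29, beside 15.3% and 18.7% of 11815 genes. Acvr1c, Bmp1 and Chrd were again among those higher, and all of the 6 but Acvr2a again among those lower. The median log2 difference of the members at 5 CPM was -0.25 in WT and -0.48 in deleted cells, beside -0.05 and -0.03 over all genes at that level. Without the single cell holding most reads of each gene, the counts higher were 3 in WT and 4 in deleted cells.

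Bmp7 stood at 179 CPM (174 to 183) in WT Ngn3-low and 16.8 CPM (15.6 to 18.1) in WT Ngn3-high cells, and at 159 CPM (156 to 163) and 17.3 CPM (15.9 to 18.8) in the deleted pair. It reached 10 CPM in 46 of 49 and 66 of 69 Ngn3-low cells and in 13 of 59 and 10 of 44 Ngn3-high cells. Smad3 stood at 106 CPM in WT Ngn3-low, 8.34 CPM in WT Ngn3-high, 113 CPM in deleted Ngn3-low and 10.2 CPM in deleted Ngn3-high cells. Tgfbr2 stood at 55.5 CPM in WT Ngn3-low, 9.44 CPM in WT Ngn3-high, 48.2 CPM in deleted Ngn3-low and 9.82 CPM in deleted Ngn3-high cells. For these 3 members both genotypes gave the same order of gates as the bulk libraries, and the difference kept its sign within each title number that both gates share (a digit in the cell titles that the labels do not explain).

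Together, Bmp7, Smad3 and Tgfbr2 reached 10 CPM in 22 of 49 WT Ngn3-low cells (44.9%, Clopper-Pearson 95% interval 30.7 to 59.8%) and 38 of 69 deleted Ngn3-low cells (55.1%, 42.6 to 67.1%). In the Ngn3-high gate it was 2 of 59 WT cells (3.39%, 0.413 to 11.7%) and 1 of 44 deleted cells (2.27%, 0.0575 to 12.02%). These intervals treat cells as independent and do not cover differences between embryos. The 3 members are among those lower in these same Ngn3-high cells, and a joint count cannot exceed that of any of them. The contrast of the gates thus follows from that choice. Tgfbr1 and Tgfbr2 were found together in 24 of 49 WT Ngn3-low but 7 of 59 WT Ngn3-high cells, although Tgfbr1 alone reached 10 CPM in 58 of 59 of the latter. In WT Ngn3-high cells the joint count equalled that of Tgfbr2 alone, so it restates the low Tgfbr2 level. Smad7 and Fstl3 were likewise low in the Ngn3-high gate. Smad7 stood at 12.8 CPM in WT Ngn3-low, 0.505 CPM in WT Ngn3-high, 10.9 CPM in deleted Ngn3-low and 2.14 CPM in deleted Ngn3-high cells, and Fstl3 at 9.77 CPM in WT Ngn3-low, 0.666 CPM in WT Ngn3-high, 12.1 CPM in deleted Ngn3-low and 2.08 CPM in deleted Ngn3-high cells. Acvr2a was lower there too, at 38.3 against 111 CPM in WT and 48.7 against 92.2 CPM in deleted cells.

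On the rising side, Tgfbr1 stood at 122 CPM in WT Ngn3-low, 226 CPM in WT Ngn3-high, 116 CPM in deleted Ngn3-low and 223 CPM in deleted Ngn3-high cells, and Bmp1 at 56.3 CPM in WT Ngn3-low, 135 CPM in WT Ngn3-high, 52.7 CPM in deleted Ngn3-low and 156 CPM in deleted Ngn3-high cells. Chrd had 3 reads in all 49 WT Ngn3-low cells, at 0.0928 CPM (0.0191 to 0.271), against 14.8 CPM (13.7 to 15.98) in WT and 14.8 CPM (13.49 to 16.2) in deleted Ngn3-high cells. Even there it reached 10 CPM in 18 of 59 and 12 of 44 cells, a minority, while Bmp1 reached it in 52 of 59 and 38 of 44. Bambi stood at 86.9 CPM in WT Ngn3-low, 135 CPM in WT Ngn3-high, 65.9 CPM in deleted Ngn3-low and 167 CPM in deleted Ngn3-high cells. Gdf11 stood at 30.7 against 54.8 CPM in the WT gates and 45.1 against 52.9 CPM in the deleted gates. Within the shared title numbers, Tgfbr1, Bmp1 and Chrd kept their sign in both genotypes, while Gdf11 kept it in 1 of 2 numbers in each genotype and Bambi in 1 of 2 in WT cells. Acvr1c, at 16.4 CPM in WT Ngn3-high cells, came from few cells: 7 of 59 reached 10 CPM, and 1 cell held 44.7% of its reads.

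Members with smaller changes, or none called, in bulk were found in both gates. Bmpr1a stood at 89.9 CPM in WT Ngn3-low, 49.1 CPM in WT Ngn3-high, 62.6 CPM in deleted Ngn3-low and 63.9 CPM in deleted Ngn3-high cells, and Bmpr2 at 73.7 CPM in WT Ngn3-low, 38.8 CPM in WT Ngn3-high, 56.9 CPM in deleted Ngn3-low and 36.1 CPM in deleted Ngn3-high cells. Smad2 stood at 74.9 CPM in WT Ngn3-low, 49.8 CPM in WT Ngn3-high, 55.2 CPM in deleted Ngn3-low and 39.2 CPM in deleted Ngn3-high cells, and Smad5 at 72.2 CPM in WT Ngn3-low, 71.5 CPM in WT Ngn3-high, 76.2 CPM in deleted Ngn3-low and 57.6 CPM in deleted Ngn3-high cells. Smad4 stood at 40.7 against 21.4 CPM in the WT and 30.9 against 17.1 CPM in the deleted gates, Smad1 at 16.4 against 20.6 and 17.2 against 26.8 CPM, and Acvr1b at 17.54 against 17.51 and 29.9 against 16.7 CPM. None of these 7 receptors and Smads differed 2-fold between the gates in either genotype. Within the 2 title numbers that both gates share, Bmpr2 and Smad1 kept the sign of the sums in both genotypes, and Smad4 had the other sign in both numbers in WT and in 1 of 2 in deleted cells. Bmpr1a, Smad2 and Acvr1b kept it in 1 of 2 numbers in each genotype, and Smad5 in 1 of 2 in WT and both in deleted cells. Fstl1 stood at 116 CPM in WT Ngn3-low, 95.04 CPM in WT Ngn3-high, 85.4 CPM in deleted Ngn3-low and 79.3 CPM in deleted Ngn3-high cells, and Inha at 15.8 CPM in WT Ngn3-low, 8.27 CPM in WT Ngn3-high, 20.9 CPM in deleted Ngn3-low and 8.59 CPM in deleted Ngn3-high cells. Between 14 and 16 members had no read in a group.

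Some of the other pathway genes showed the bulk order of the gates in single cells as well. Id3 stood at 203 CPM in WT Ngn3-low, 5.86 CPM in WT Ngn3-high, 215 CPM in deleted Ngn3-low and 3.35 CPM in deleted Ngn3-high cells, and Tgif1 at 91.1 CPM in WT Ngn3-low, 4.76 CPM in WT Ngn3-high, 77.5 CPM in deleted Ngn3-low and 7.75 CPM in deleted Ngn3-high cells. Cyr61 stood at 150.1 CPM in WT Ngn3-low, 1.49 CPM in WT Ngn3-high, 176 CPM in deleted Ngn3-low and 1.52 CPM in deleted Ngn3-high cells. Cer1 was higher in the Ngn3-high gate, at 5.81 CPM in WT Ngn3-low, 90.5 CPM in WT Ngn3-high, 1.86 CPM in deleted Ngn3-low and 94.5 CPM in deleted Ngn3-high cells, and reached 10 CPM in 28 of 59 WT and 26 of 44 deleted cells of it. Eng, with 40.5 and 49.7 CPM in the bulk Ngn3-low libraries, was under 1 CPM in each single-cell group. Tgfbi, with 64.5 and 56.2 CPM there, was likewise under 1 CPM.

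**Figure D4:**
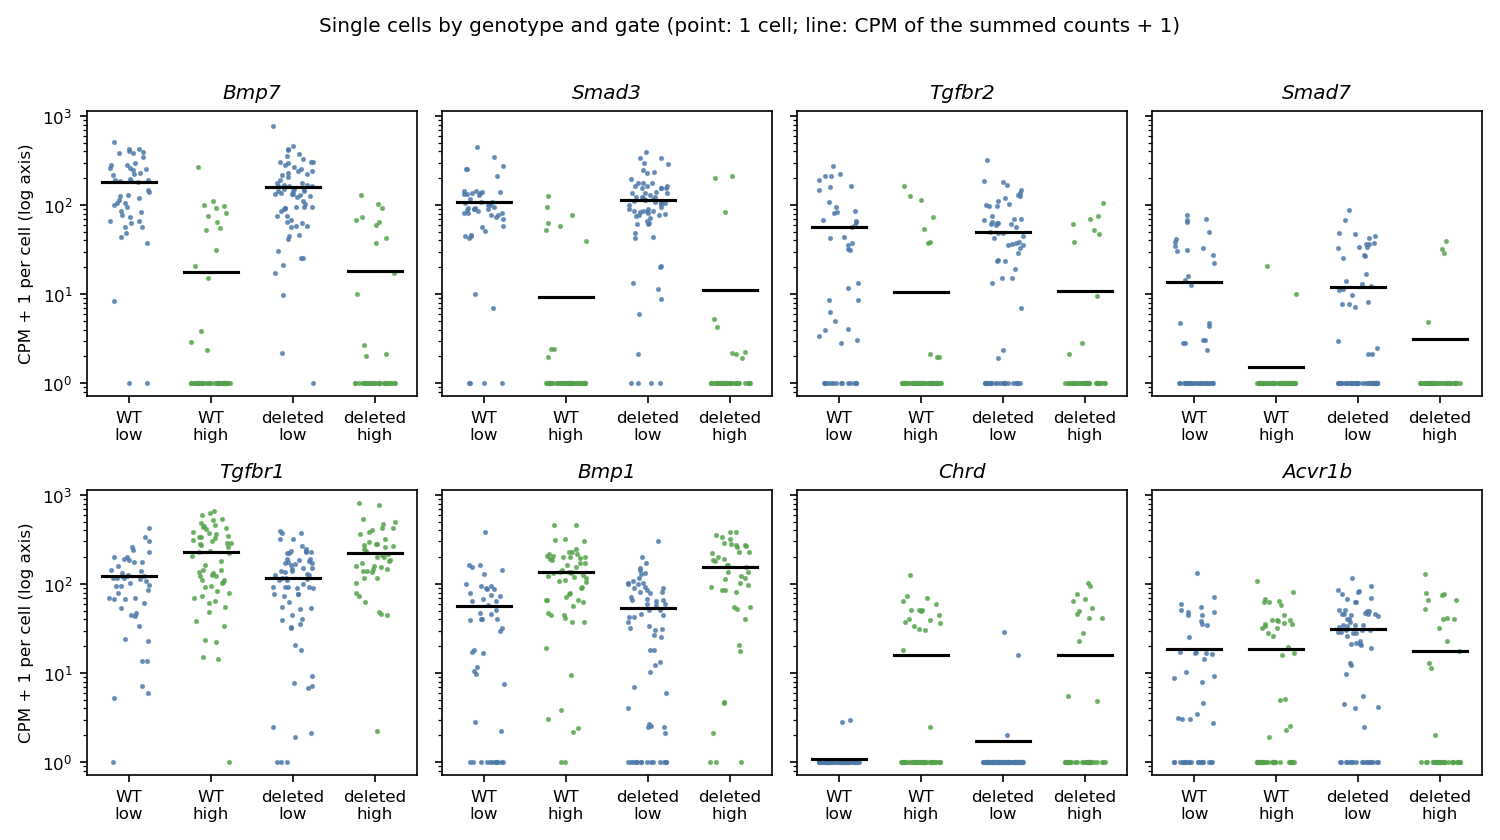
CPM plus 1 in each single cell, on a log axis, for 8 members in the 4 groups (WT and Jmjd3-deleted, Ngn3-low in blue, Ngn3-high in green), with a line at the CPM of the summed counts plus 1. Bmp7, Smad3, Tgfbr2 and Smad7 are at 0 in most Ngn3-high cells of both genotypes, Tgfbr1 and Bmp1 are detected in nearly all of them, and Chrd in 18 of 59 WT and 12 of 44 deleted Ngn3-high cells at 10 CPM or more.

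Of the 16 members that fell in bulk, 7 reached 5 CPM in WT single cells and all 7 were lower in the Ngn3-high gate, 6 of them 2-fold or more. The other 9 were below 5 CPM in both WT gates, among them Tgfb1, Bmp2, Acvrl1, Smad6 and Tgfbr3. In deleted cells 9 of the 16 reached 5 CPM, and 8 were lower in the Ngn3-high gate, 5 of them 2-fold or more, while Acvrl1 was higher. How many of all genes called in bulk kept their order in the cells was not counted. These counts can therefore not be called particular to the members. Tgfb1, at 70.4 and 70.2 CPM in the bulk Ngn3-low libraries, had 3 reads over 49 WT Ngn3-low cells, at 0.0928 CPM (0.0191 to 0.271), and no read in 69 deleted Ngn3-low cells, where 3 counts would be 0.0575 CPM. Acvrl1 had 1 read in WT Ngn3-low cells and no read in deleted Ngn3-low cells, and it stood at 3.31 and 5.30 CPM in the Ngn3-high gates, the opposite order to bulk. Bmp2 stood at 0.990 CPM in WT Ngn3-low, 2.23 CPM in WT Ngn3-high, 1.38 CPM in deleted Ngn3-low and 2.01 CPM in deleted Ngn3-high cells, with 1 cell holding 96.9% of its reads in WT Ngn3-low cells. For Tgfb1, Acvrl1 and Bmp2 the bulk Ngn3-low libraries thus held far more than the single cells of that gate, and those libraries also held 2028 and 2465 CPM of white blood cell and 460 and 507 CPM of endothelial markers, against 12.6 and 44.9 CPM at most in a single-cell group. The part of such cells in the bulk values was not tested.

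Of the 12 members that rose in bulk, 9 reached 5 CPM in WT single cells, and 8 were higher in the Ngn3-high gate, 3 of them 2-fold or more. Acvr2b was the other, at 12.2 CPM against 18.1 CPM in the WT Ngn3-low gate. In deleted cells 9 of 9 were higher, 5 of them 2-fold or more. As for the members that fell, no share over all genes called in bulk stands beside these counts. Smad6 kept the bulk order at low level, with 3.37 CPM in WT Ngn3-low, 0.758 CPM in WT Ngn3-high, 4.37 CPM in deleted Ngn3-low and 0.403 CPM in deleted Ngn3-high cells.

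**Figure D5:**
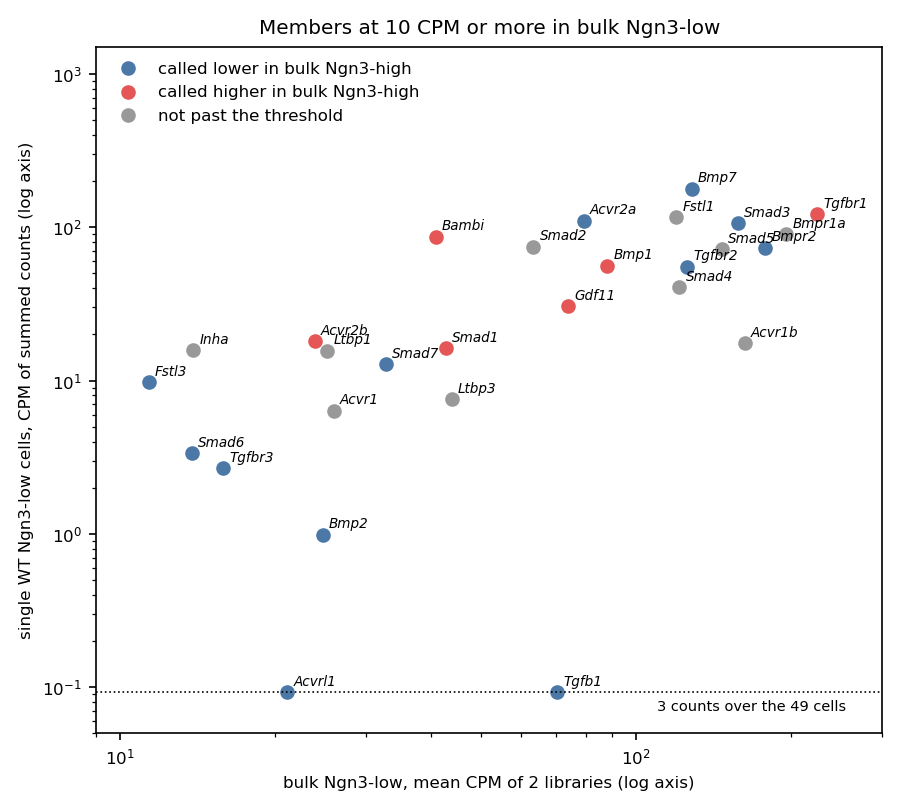
Mean CPM in the 2 bulk Ngn3-low libraries against the CPM of summed counts in WT Ngn3-low single cells, both on log axes, for members at 10 CPM or more in bulk, coloured by the edgeR call for Ngn3-high minus Ngn3-low. Values under 3 counts over the 49 cells are drawn at the dotted line that marks this level, where Tgfb1, with 3 reads, and Acvrl1, with 1 read, lie, and Bmp2 near 1 CPM, while Bmp7, Smad3 and Tgfbr2 lie between 55.5 and 179 CPM.

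The study deleted Jmjd3, a demethylase of histone H3 lysine 27, to ask what it does in endocrine specification. Few members lay 2-fold apart between the genotypes. Their shares lay above those of all genes, except for members higher in deleted Ngn3-high cells, but each rests on at most 5 members. Most of those members stayed under 10 CPM in both genotypes, and some rested largely on 1 cell. The shares are therefore not read as a trait of the members. The counts moved with the setting and were not tested. In Ngn3-low cells, 2 of the 25 members at 5 CPM were 2-fold or more higher in deleted cells and 1 lower, beside 1.70% and 2.65% of 11268 genes. Tgfb3 stood at 0.0309 CPM (0.000783 to 0.172) in WT and 7.98 CPM (7.23 to 8.78) in deleted Ngn3-low cells, reaching 10 CPM in 0 of 49 and 8 of 69. Tgfbr3 stood at 2.69 CPM (2.16 to 3.32) and 9.97 CPM (9.14 to 10.9), and Ltbp1 at 15.7 CPM (14.4 to 17.1) and 6.52 CPM (5.85 to 7.25). The Ltbp1 difference had the other sign within 1 of the 3 title numbers that both genotypes share.

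In Ngn3-high cells, none of the 28 members at 5 CPM was 2-fold higher in deleted cells (2.96% of 11101 genes were) and 5 were lower (2.76% of genes): Acvr1, Acvr1c, Fst, Ltbp3 and Tgfb2. Without the cell richest in each gene it was 2. A single WT cell held 98.7% of the Fst reads, 1 held 68% of the Tgfb2 reads and 1 held 44.7% of the Acvr1c reads. Of the members that separated the gates, the sums of Bmp7, Smad3, Tgfbr2, Tgfbr1, Bmp1 and Ngn3-high Chrd differed between genotypes by at most 1.22-fold within a gate. Within the 3 shared title numbers of Ngn3-high cells, log2 deleted minus WT ran from -3.02 to 1.99 for Smad3 and -1.31 to 5.05 for Tgfbr2. It ran from -0.50 to 1.84 for Bmp7, and stayed between -0.44 and 0.50 for Tgfbr1, Bmp1 and Chrd. The sums of other members stood further apart in Ngn3-high cells: Acvr1c was at 16.4 CPM in WT and 5.11 CPM in deleted cells and lower in deleted cells in each of 3 shared title numbers, while Smad7 was at 0.505 and 2.14 CPM and Fstl3 at 0.666 and 2.08 CPM. With 1 sample per group, genotype and the unnamed embryos behind it cannot be told apart.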

How the data were processed

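Bulk RNA from sorted cells was poly(A)-selected and made into directional libraries, while RNA of single cells was amplified by Smart-seq2, a method without molecular identifiers, after ERCC spike-in RNA was added, per the labels' protocols. The deposited tables hold whole-number read counts of each gene, which the authors obtained with TopHat2 2.1.0, Bowtie2 and HTSeq 0.6.0 on mm10, per the submitters' processing notes. The authors also deposited RPKM values pooled over the libraries of a bulk group, used here only for levels per gene length. No source used here names the annotation or the strand setting, and reads of overlapping antisense genes may be shared. The 31 chromatin samples were not used here.

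The members and the lists of other pathway genes and cell markers were chosen with earlier results of these data known. Counts without the 92 ERCC rows were tested with edgeR 4.0.16 (trimmed-mean factors, its expression filter, quasi-likelihood test over all 6 bulk libraries, Benjamini-Hochberg adjustment over 15684 genes at 0.05), a script tested on simulated data. Fold changes are log2 ± SE with 2 libraries per group. In bulk, members at 10 CPM or more in the higher group of a comparison were named, and in single cells those at 10 CPM or more with at least 10% of cells at 10 CPM. From each other pathway list at most 5 genes with a 2-fold change and 20 CPM were named per comparison. Other genes were named after their values were seen. Library replicates differed by more than sampling noise (chi-square per degree of freedom 13.8 to 62.9). A bulk library without a read of a gene has a limit of 3 counts, 0.169 to 0.251 CPM. Alternatives were DESeq2 1.42.0, other scaling, no filter, a replicate block, each library left out, and for single cells another constant, means over cells, shared title numbers, and leaving out marker-positive cells or, added after seeing the data, the cell richest in the gene.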

Additional observations from a re-analysis of the deposited data

How the results depend on the processing

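With a 2-fold change also required, the members called up and down in bulk were 7 and 13 for Ngn3-high minus Ngn3-low, beside 14.4% and 20.4% of all genes. Without the fold requirement, all libraries gave 12 and 16 for Ngn3-high minus Ngn3-low. They gave 11 and 13 for Ins1-RFP+ minus Ngn3-high, and 12 and 23 for Ins1-RFP+ minus Ngn3-low. Leaving out 1 library at a time then gave 10 to 13 up and 13 to 17 down for Ngn3-high minus Ngn3-low. It gave 8 to 14 and 10 to 17 for Ins1-RFP+ minus Ngn3-high, and 9 to 12 and 19 to 23 for Ins1-RFP+ minus Ngn3-low. With the replicate block, 28 of 28, 24 of 24 and 33 of 35 calls were kept, Gdf3 and Gdf6 being lost in the last. The replicate numbers are not stated to pair the libraries. Correlations of same-numbered deviations were 0.059, 0.085 and 0.010, which show no strong shared shift but cannot tell whether such libraries share a source. Directions of changes that had not passed turned in a few cases: leaving out a library gave -0.049 to 0.41 for Bmpr1a, -0.36 to 0.20 for Inha and -0.20 to 0.0064 for Smad5 in Ngn3-high minus Ngn3-low. In Ins1-RFP+ minus Ngn3-high it gave -1.23 to 0.073 for Bmp7 and -0.46 to 0.0077 for Bmpr1a. In Ins1-RFP+ minus Ngn3-low it gave -0.065 to 0.15 for Bambi and -0.10 to 0.017 for Bmpr1a, and total-count scaling gave -0.13 for Bambi. The cause was not tested.

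Single-cell counts of members past 2-fold were small and moved more. Without the cell richest in each gene, 3 were higher in Ngn3-high than Ngn3-low WT cells, 4 in deleted cells, and 2 were lower in deleted than WT Ngn3-high cells. With 5 CPM added, 1 member was higher and 0 lower in deleted than WT Ngn3-low cells, and 3 were lower in deleted Ngn3-high cells. With means over cells, 2 were lower in deleted Ngn3-low cells and 2 higher in deleted Ngn3-high cells. Without cells that carry 2 white blood cell or endothelial markers, those numbers were 2 and 1. Over shared title numbers, 2 were lower in deleted Ngn3-low cells. The 2 libraries per population and 1 sample per single-cell group limit the precision, and members of a few CPM rest on 1 or a few cells.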
